A study of Mus musculus with 12 samples.

Results

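The transcription factor p53, its regulators and targets and the kinases of the DNA damage response were followed as a list of 34 named genes in microglia preparations from bone marrow transplanted mice. The members were taken from the deposited count table by gene symbol. All 34 had an entry among the 36491 genes of the table, and 33 passed the filter on low counts, Eda2r being the exception. The list asks whether head irradiation left a trace in these genes and how they responded to lipopolysaccharide (LPS), which comes from the outer membrane of bacteria and is sensed by Toll-like receptor 4.

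The study measured RNA by sequencing in cells collected from the brain with CD11b magnetic beads, from male wild-type C57BL/6J mice aged 6 months. There were 4 groups of 3 libraries. The first was transplanted without a head shield and given LPS, the second was transplanted with a head shield and given LPS, the third was unshielded without LPS and the fourth was shielded without LPS. All mice, those without LPS included, had a transplant and 2 weeks of PLX5622 in the diet, a blocker of the CSF1 receptor that depletes microglia, and then 6 weeks of standard chow. LPS (50 µg) or saline was injected into the peritoneum and cells were sorted 6 hours later. A shield keeps radiation from the head, so all groups had been prepared for transplantation and the shield comparison bears on the head. CD11b is carried by microglia, by marrow-derived macrophages and by other myeloid cells, so the sort does not separate these. Nothing in the labels ties the 3 libraries of a group to 3 different animals, and the p-values therefore reflect the spread among libraries, which may be technical.

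The p53 protein, encoded by Trp53 in the mouse, is held at a low level by the ubiquitin ligase Mdm2 and its partner Mdm4. Broken DNA activates the kinases Atm and Atr, which act through Chek2 and Chek1 to stabilise p53, and p53 then switches on genes of cell cycle arrest, apoptosis and repair together with Mdm2 itself, which closes a feedback loop. Part of this set is also switched on by inflammatory and metabolic signals, among them Gadd45b, Fas and Sesn2. Cdkn2a encodes the Ink4a protein, a brake on the cell cycle, and the Arf protein, an inhibitor of Mdm2, and its rise is widely used as a mark of senescence.

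Library totals ran from 18090977 to 60495968 counts. For shielded libraries 2 and 3 titled as without LPS, the treatment field says LPS. The mean log2 CPM (the count scaled to library size) of 10 LPS-response genes was 7.34 to 7.89 in unshielded LPS libraries, 8.10 to 8.66 in shielded LPS libraries, 3.15 to 4.51 in unshielded libraries without LPS and 2.94 to 3.75 in shielded libraries without LPS, so both libraries sat with those without LPS. Groups follow the titles, and results without these libraries are given where they end a call. That leaves 1 shielded library without LPS, which is then assumed to vary like the other groups. Markers of other cells also moved with the groups. Of 15 genes of marrow-derived macrophages, 14 were higher in unshielded mice both without and after LPS, with summed levels of 66160 to 99900 CPM in unshielded mice and 8608 to 27650 CPM in shielded mice without LPS, and of 91720 to 120100 and 4366 to 6600 CPM after LPS. Of 15 microglia identity genes, 12 were lower in unshielded mice without LPS (11650 to 15520 CPM, against 24570 to 29530 CPM in shielded mice) and 13 were lower after LPS (8716 to 10420 CPM, against 17540 to 19020 CPM). Summed levels of 9 neuron genes were 129 to 243 CPM in unshielded LPS libraries, 36.5 to 181 CPM in shielded LPS libraries, 303 to 352 CPM in unshielded libraries without LPS and 203 to 376 CPM in shielded libraries without LPS. Those of 8 oligodendrocyte genes were 1066 to 1915, 427 to 1335, 1783 to 2300 and 1804 to 2844 CPM in the same order of groups. No marker of these 4 lists was at 0 across a group. Of 10 tested monocyte genes, 9 rose and 1 fell with LPS in unshielded mice, and 8 rose and 1 fell in shielded mice. Among 12 neutrophil genes, 6 rose and 0 fell with LPS in unshielded mice, and 2 rose and 1 fell in shielded mice. Of 9 endothelial genes, 1 rose and 6 fell in unshielded mice, and 1 rose and 5 fell in shielded mice. Of 9 astrocyte genes, 1 rose and 1 fell in unshielded mice, and 2 rose and 4 fell in shielded mice. In unshielded mice, 10 B and T cell genes summed to 24.9 to 46.4 CPM with LPS and 245 to 292 CPM without it. In shielded mice they summed to 37.3 to 46.8 and 319 to 382 CPM. Of all genes, 24.3% rose and 18.8% fell in unshielded mice, and 32.4% rose and 35.1% fell in shielded mice. The part of these cells in the LPS changes was not tested.

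The stretch of 250 bases before the start site, taken from RefSeq on build GRCm38.p6, is printed here for 6 members. Other members with large LPS changes, such as Fas and Gadd45b, are not shown. Letters in capitals mark a match to the p53 half-site or, in Atr, to the kappa B site bound by the NF-kB factors. Cdkn1a is shown at the one of its 2 annotated starts that holds a pair of half-sites, which lies 2790 bases upstream of the other. Aen is shown at its downstream start, whose window holds the half-site. The window of its upstream start holds no match. Cdkn2a is shown at both of its starts, which lie 12427 bases apart and whose transcripts the gene count adds together.
Cdkn1a, chr17:29090729-29090978, plus strand: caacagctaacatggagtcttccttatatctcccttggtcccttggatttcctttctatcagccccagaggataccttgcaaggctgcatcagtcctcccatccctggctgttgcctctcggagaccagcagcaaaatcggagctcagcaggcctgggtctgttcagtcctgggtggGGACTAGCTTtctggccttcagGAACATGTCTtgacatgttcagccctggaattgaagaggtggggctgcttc
Trp53, chr11:69580109-69580358, plus strand: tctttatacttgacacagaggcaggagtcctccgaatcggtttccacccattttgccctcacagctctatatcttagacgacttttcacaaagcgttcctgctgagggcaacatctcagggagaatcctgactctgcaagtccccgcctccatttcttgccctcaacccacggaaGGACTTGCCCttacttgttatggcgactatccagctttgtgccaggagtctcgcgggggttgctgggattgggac
Ccng1, chr11:40755287-40755536, minus strand: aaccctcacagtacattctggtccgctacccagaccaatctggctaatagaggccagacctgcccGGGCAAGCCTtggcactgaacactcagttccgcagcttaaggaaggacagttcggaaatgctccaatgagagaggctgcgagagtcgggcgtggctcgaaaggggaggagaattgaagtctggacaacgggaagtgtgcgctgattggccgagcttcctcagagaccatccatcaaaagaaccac
Aen, chr7:78895808-78896057, plus strand: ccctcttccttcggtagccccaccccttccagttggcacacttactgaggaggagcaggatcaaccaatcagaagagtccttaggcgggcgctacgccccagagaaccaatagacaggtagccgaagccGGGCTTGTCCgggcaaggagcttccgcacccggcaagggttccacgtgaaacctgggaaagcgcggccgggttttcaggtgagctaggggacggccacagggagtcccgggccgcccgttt
Atr, chr9:95857347-95857596, plus strand: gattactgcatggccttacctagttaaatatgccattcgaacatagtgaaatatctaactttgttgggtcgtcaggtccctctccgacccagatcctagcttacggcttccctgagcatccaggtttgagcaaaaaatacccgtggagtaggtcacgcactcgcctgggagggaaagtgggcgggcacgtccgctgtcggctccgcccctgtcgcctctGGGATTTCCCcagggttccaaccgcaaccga
Cdkn2a, upstream start, chr4:89294620-89294869, minus strand: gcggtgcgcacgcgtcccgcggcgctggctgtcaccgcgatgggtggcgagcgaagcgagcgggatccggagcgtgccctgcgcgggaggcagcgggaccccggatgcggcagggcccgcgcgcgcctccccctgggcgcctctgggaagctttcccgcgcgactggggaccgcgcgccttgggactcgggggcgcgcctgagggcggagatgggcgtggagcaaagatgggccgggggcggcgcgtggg
Cdkn2a, downstream start, chr4:89282193-89282442, minus strand: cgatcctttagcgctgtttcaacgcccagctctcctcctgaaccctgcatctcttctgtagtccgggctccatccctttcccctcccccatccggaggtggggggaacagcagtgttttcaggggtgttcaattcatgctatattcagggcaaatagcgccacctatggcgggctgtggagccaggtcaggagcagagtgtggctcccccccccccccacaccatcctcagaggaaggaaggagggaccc

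Such windows were at hand for 27 of the 34 members, and not for Trp53inp1, Zmat3, Tnfrsf10b, Pmaip1, Ddb2, Xpc and Rrm2b. Both strands were searched, and because the consensus reads nearly the same on each strand a site was counted once. The p53 half-site was present in 10 of 27 members (Trp53, Mdm2, Cdkn1a, Ccng1, Bax, Sesn1, Aen, Ppm1d, Polk and Gadd45a) and in 8.2% of 27018 genes. A pair of half-sites at most 13 bases apart, here called a p53 full site, was found in 1 member, Cdkn1a, at positions -73 to -64 and -51 to -42 from the start, and in 18 genes in all (0.07%). In Cdkn1a the bases directly after the second match miss the half-site pattern at their first letter, so they were not counted. The kappa B site was found in Bbc3 and Atr and in 4.46% of genes. Among members that rose with LPS in both shield groups, Cdkn1a, Gadd45a, Bax and Aen held a half-site. Fas, Gadd45b, Sesn2 and Plk2 held no match to either site. A match is a stretch of letters, not a measured binding site.

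Per kilobase of exon, the most abundant members in mice without LPS were Btg2, an antiproliferative gene (98.5 CPM per kb in unshielded and 126 in shielded mice), the kinase Plk3 (60.8 and 40.9), the stress sensor Sesn1 (48.5 and 30.9) and the apoptosis effector Bax (35.3 and 38.2). Trp53 itself stood at 14.6 CPM per kb in unshielded and 17 in shielded mice. At the low end were Chek1 (0.245 and 0.234), Brca1 (0.139 and 0.141), the death receptor Tnfrsf10b (0.109 and 0.138) and Eda2r (0.0371 and 0.0183), which encodes a receptor of the TNF receptor family. After LPS, Cdkn1a reached 53.3 CPM per kb in unshielded and 55.9 in shielded mice, among the 5 highest members in both groups. Exon lengths come from the GENCODE annotation. Several members share exonic bases with another gene there, over 23.8% of the exons in Ddb2, 19.1% in Gadd45a, 12.2% in Bax and 3.07% to 8.04% in Cdkn1a, Rrm2b, Plk3 and Atr, and because the strand setting of the counting is not given in the sources used here, their levels may hold reads of the partner.

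The first question was whether unshielded brains differed from shielded ones in p53 target genes without LPS. They differed in 3 of the 33 members tested, Sesn1 being higher and Cdkn2a and Ercc5 lower in unshielded mice, beside 10.8% of all 18875 genes tested (3.98% higher and 6.85% lower). Only Cdkn2a passed with a change of at least 2-fold, 1 of 33 members beside 3.51% of all genes. By DESeq2's size factors (RLE scaling) 1 member was higher and 1 lower, and by library totals 2 were higher and 3 lower. The median log2 difference over members was -0.03, and over all genes it was -0.00. The groups did not overlap for 11 of 33 members, beside 33.6% of all genes. In bulk samples, fewer cells of a type and less RNA per cell cannot be told apart. The marrow macrophage and microglia markers given above also differed in this comparison. The groups may therefore not set irradiated against shielded cells of the same kind, and the part of the cell mix was not tested.

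The classical targets Cdkn1a and Mdm2 gave no call. Cdkn1a, which encodes the cyclin-dependent kinase inhibitor of p53-driven arrest, had 28.6, 28.9 and 29.1 CPM in unshielded mice, against 30.0, 31.1 and 29.0 CPM in shielded mice. The groups overlapped and the libraries were close to one another, with a log2 difference of -0.06 ± 0.14 (SE; 95% interval -0.36 to 0.24; adjusted p = 0.889). Mdm2 had 50.9, 49.5 and 49.2 CPM in unshielded mice, against 50.8, 54.8 and 46.8 CPM in shielded mice. The unshielded values lay inside the shielded range, and the log2 difference was -0.03 ± 0.09 (interval -0.22 to 0.17; adjusted p = 0.93). As folds of unshielded over shielded mice, the intervals ran from 0.782 to 1.18 for Cdkn1a and from 0.859 to 1.12 for Mdm2.

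Trp53 had 59.0, 60.4 and 57.9 CPM in unshielded mice, against 65.6, 76.9 and 64.2 CPM in shielded mice. Every unshielded value was lower, yet the log2 difference of -0.22 ± 0.15 did not pass (adjusted p = 0.481). Ccng1, a cyclin induced by p53, had 62.6, 61.3 and 56.9 CPM in unshielded mice, against 82.9, 79.4 and 69.2 CPM in shielded mice. The groups did not overlap, and the difference of -0.36 ± 0.11 did not pass (adjusted p = 0.0513). It passed in 7 of 15 alternatives that follow the titles (adjusted p 0.00385 to 0.205 over the 15), among them the fit of only the groups compared (0.0257) and library totals (0.0213). Plk3, higher in unshielded mice by 0.57 ± 0.18 (adjusted p = 0.0689), passed in 6 of the 15 (0.44 to 0.64, adjusted p 0.00252 to 0.514).

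Bax and Bbc3, of p53-driven apoptosis, were likewise without a call. Bax had 59.6, 53.2 and 54.0 CPM in unshielded mice, against 59.6, 60.3 and 60.8 CPM in shielded mice (log2 difference -0.11 ± 0.10, adjusted p = 0.609), and the groups overlapped in one value. Bbc3, which encodes the BH3-only protein Puma, had 21.5, 18.7 and 18.6 CPM in unshielded mice, against 25.2, 28.2 and 26.5 CPM in shielded mice. All unshielded values were below all shielded ones, with a difference of -0.44 ± 0.16 (adjusted p = 0.119) that passed in 4 of the 15 alternatives (adjusted p 0.00863 to 0.618). Phlda3, a p53-induced inhibitor of Akt, had 3.72, 3.18 and 3.46 CPM in unshielded mice, against 2.28, 2.62 and 4.44 CPM in shielded mice, and its spread among shielded libraries was wider than the group difference (0.15 ± 0.32, adjusted p = 0.874). Eda2r had 6, 6 and 8 counts in unshielded libraries and 4, 2 and 8 counts in shielded libraries, too few for a test.

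Sesn1, one of the sestrins that restrain mTORC1 and oxidative stress, is singled out here after its values were seen. It had 202, 178 and 200.1 CPM in unshielded mice, against 134, 122 and 114 CPM in shielded mice. The lowest unshielded library stood above the highest shielded one, and the difference was 0.65 ± 0.12 on the log2 scale, or 1.57-fold (adjusted p = 0.00346). Ercc5, which encodes an endonuclease of nucleotide excision repair, had 28.1, 28.3 and 25.5 CPM in unshielded mice, against 32.5, 35.1 and 31.9 CPM in shielded mice, a small difference of -0.28 ± 0.08 (adjusted p = 0.0333) that also separated the groups. Without the 2 libraries of conflicting label neither Sesn1 (0.53, adjusted p = 0.21) nor Ercc5 (-0.25, adjusted p = 0.381) passed. Ercc5 also lost its call without shielded library 1 or 2 or any 1 of the unshielded libraries (log2 differences -0.31 to -0.24, adjusted p 0.0595 to 0.166). The call was further lost with RLE scaling, with library totals and without a filter on low counts. It held in 6 of the 15 alternatives that follow the titles.

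Cdkn2a stood apart from the other members. It had 4.63, 7.13 and 4.12 CPM in unshielded mice without LPS, against 19.0, 19.3 and 18.2 CPM in shielded mice without LPS. After LPS it had 7.06, 4.48 and 4.10 CPM in unshielded mice, against 15.9, 14.0 and 15.5 CPM in shielded mice. Every unshielded library was far below every shielded one, whether or not LPS was given. The log2 difference was -1.85 ± 0.22 without LPS (0.278-fold, 95% interval 0.199 to 0.388, adjusted p = 0.000322) and -1.54 ± 0.22 after LPS (0.345-fold, interval 0.249 to 0.478, adjusted p = 0.000127). LPS gave no call for Cdkn2a in unshielded mice (-0.00 ± 0.22, adjusted p = 0.99) or in shielded mice (-0.31 ± 0.21, adjusted p = 0.198). The neighbouring inhibitor gene Cdkn2b, from a list of senescence markers, averaged 1.18 CPM in unshielded and 2.36 CPM in shielded mice without LPS, a difference of -0.99 ± 0.21 (adjusted p = 0.00764).

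The Cdkn2a difference held in all 15 alternative analyses that follow the titles, in both shield comparisons, and was -1.86 (adjusted p = 0.0279) without the 2 libraries of conflicting label. It was lost without LPS when those libraries were regrouped by the treatment field (adjusted p = 0.333). Cdkn2a ran opposite to the marrow macrophage markers and in the direction of the microglia identity genes given above, and whether the mix of cells had a part in it was not tested.

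**Figure D1:**
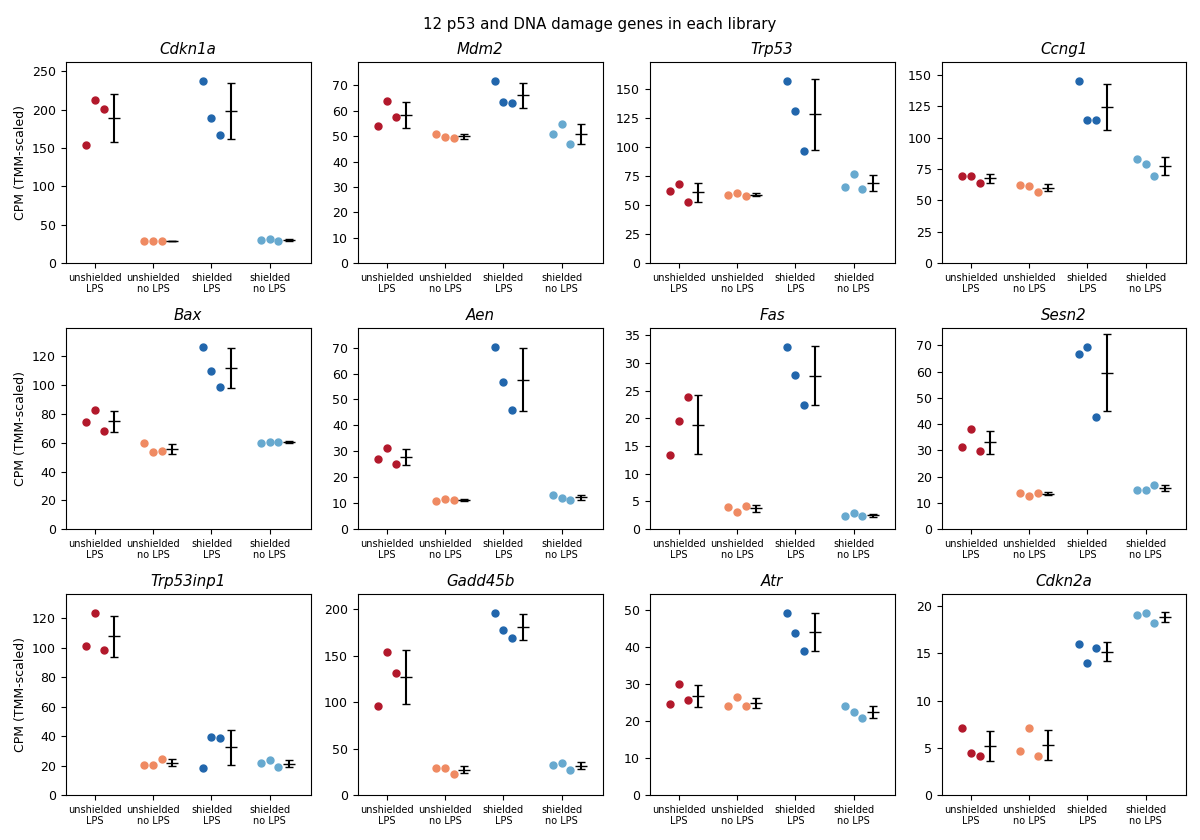
TMM-scaled CPM of 12 members in every library, 1 panel per gene, with the groups along the x axis and CPM from 0 on the y axis; points are libraries, and the bars beside them are the group mean ± SD. Cdkn1a is near 30 CPM in all 6 libraries without LPS and at 154 to 238 CPM in all 6 with LPS, whereas Cdkn2a separates unshielded (4.10 to 7.13 CPM) from shielded mice (14.0 to 19.3 CPM).

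**Figure D2:**
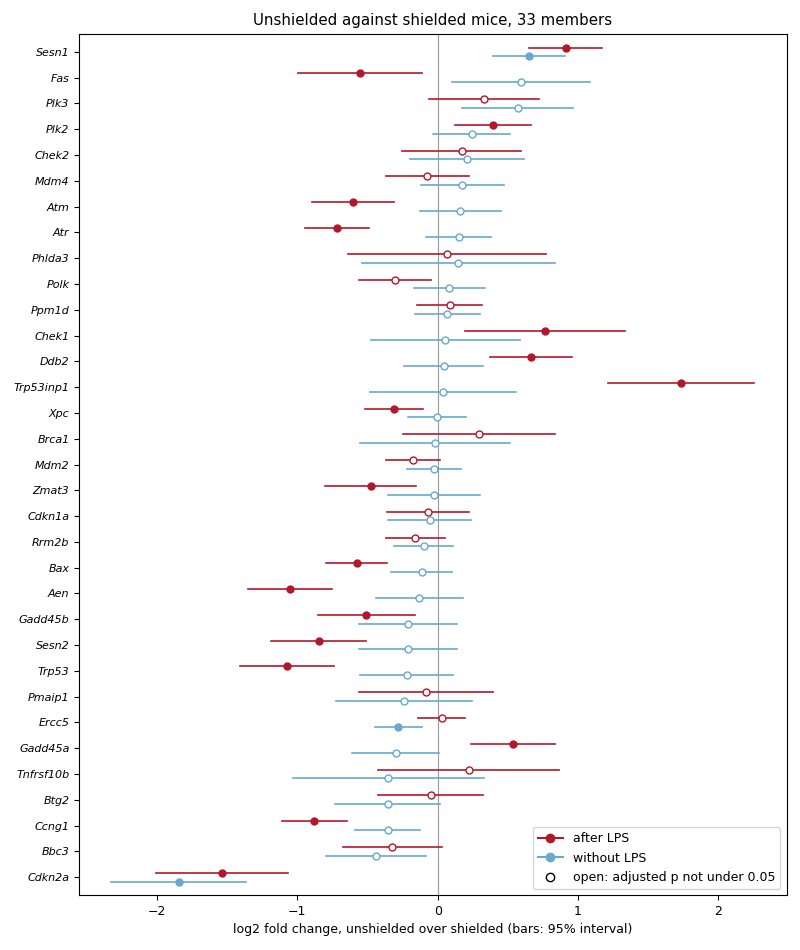
Log2 difference of unshielded minus shielded mice for the 33 tested members, without LPS and after LPS, with 95% intervals; filled points passed the adjusted threshold. Without LPS 3 members passed and after LPS 18 did, with Cdkn2a lowest in both (-1.85 and -1.54).

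The second question was the response to LPS. In unshielded mice 13 of 33 members passed, 9 higher and 4 lower, beside 43.1% of all genes (24.3% higher and 18.8% lower). In shielded mice 23 of 33 members passed, 18 higher and 5 lower, beside 67.5% of all genes (32.4% higher and 35.1% lower). Calls of at least 2-fold numbered 9 of 33 members in unshielded mice, beside 14.8% of all genes, and 7 of 33 in shielded mice, beside 37.1%. The shares called in either direction are near those of all genes, so only the directions and the single genes are described. The shares called at 2-fold or more are not near. Among members this share was above that of all genes in unshielded mice and below it in shielded mice. The median log2 change over members was 0.10 in unshielded and 0.37 in shielded mice, against -0.06 and -0.14 over all genes. Libraries with and without LPS did not overlap for 19 of 33 members in unshielded mice, beside 61.4% of all genes. In shielded mice they did not overlap for 24 of 33 members, beside 69.8% of all genes. The 9 members higher in both were Cdkn1a, Gadd45a, Gadd45b, Plk2, Bax, Fas, Aen, Trp53inp1 and Sesn2, and the 3 lower in both were Sesn1, Ddb2 and Chek2. No member was called in opposite directions. Of all 18875 genes, 4037 were higher in both, 2905 were lower in both and 91 were called in opposite directions.

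Among the regulators, Trp53 had 62.2, 68.2 and 52.5 CPM in unshielded LPS mice, against 59.0, 60.4 and 57.9 CPM in unshielded mice without LPS. These groups overlapped (log2 change 0.04 ± 0.15, adjusted p = 0.826). In shielded mice Trp53 had 157, 131 and 96.4 CPM with LPS, against 65.6, 76.9 and 64.2 CPM without it, and rose by 0.90 ± 0.15 (adjusted p = 0.000268). Mdm2 had 53.8, 63.9 and 57.4 CPM in unshielded LPS mice and 71.8, 63.2 and 62.9 CPM in shielded LPS mice. All LPS libraries were above those without LPS in both, yet only the shielded change passed (0.38 ± 0.09, adjusted p = 0.00268), the unshielded one being 0.23 ± 0.09 (adjusted p = 0.0569). Mdm4 changed by 0.03 ± 0.14 and 0.28 ± 0.14 and passed in neither. The phosphatase Ppm1d, which switches the response off, changed by 0.27 ± 0.11 in unshielded mice (adjusted p = 0.0539) and 0.26 ± 0.11 in shielded mice (adjusted p = 0.0479).

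Among genes of arrest and stress signalling, Cdkn1a had 154, 213 and 201 CPM in unshielded LPS mice, 6.56-fold the level without LPS (log2 change 2.71 ± 0.14, adjusted p = 1.06e-07). In shielded LPS mice it had 238, 189.8 and 168 CPM, or 6.61-fold (2.72 ± 0.14, adjusted p = 2.67e-08). The changes were alike in size, and their difference was -0.01 with an interval of -0.43 to 0.40.

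Gadd45b, a stress-induced activator of the p38 and JNK pathways, had 96.0, 154 and 132 CPM in unshielded LPS mice, against 29.4, 29.3 and 23.1 CPM in unshielded mice without LPS (2.22 ± 0.17, adjusted p = 9.69e-07). In shielded mice it had 196, 178 and 169 CPM with LPS, against 32.4, 34.9 and 27.5 CPM without (2.52 ± 0.17, adjusted p = 1.28e-07). The lowest LPS library of either pair was far above the highest without LPS.

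Gadd45a, its relative and a direct p53 target, had 11.8, 12.5 and 14.4 CPM in unshielded LPS mice, against 3.74, 3.90 and 3.98 CPM in unshielded mice without LPS (1.74 ± 0.14, adjusted p = 1.82e-06). Shielded mice had 8.89, 9.06 and 8.71 CPM with LPS, against 5.35, 5.01 and 3.94 CPM without (0.90 ± 0.14, adjusted p = 0.000133). It rose in both, with higher LPS values in unshielded mice.

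Plk2, a polo-like kinase, had 51.0, 68.8 and 60.7 CPM in unshielded LPS mice, against 26.3, 32.3 and 28.6 CPM without LPS (1.05 ± 0.13, adjusted p = 3.1e-05). In shielded mice it had 48.3, 39.1 and 50.1 CPM with LPS, against 23.7, 26.1 and 23.7 CPM without (0.91 ± 0.13, adjusted p = 4.97e-05). The groups did not overlap in either pair. Its relative Plk3 changed by 0.30 ± 0.18 in unshielded mice (adjusted p = 0.191) and by 0.55 ± 0.18 in shielded mice (adjusted p = 0.019). Ccng1 had 69.6, 69.8 and 63.7 CPM in unshielded LPS mice and 146, 114 and 114 CPM in shielded LPS mice. Its change was 0.17 ± 0.11 in unshielded mice (adjusted p = 0.219) and 0.69 ± 0.11 in shielded mice (adjusted p = 0.000117). Btg2 passed in neither (0.35 ± 0.17 and 0.04 ± 0.17).

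Of the apoptosis genes, Fas, the death receptor, had 13.3, 19.5 and 23.9 CPM in unshielded LPS mice, against 4.04, 3.08 and 4.18 CPM without LPS (4.97-fold, adjusted p = 5.56e-06). Shielded mice had 33, 27.9 and 22.4 CPM with LPS, against 2.37, 2.88 and 2.32 CPM without (11-fold, 95% interval 7.81 to 15.6, adjusted p = 1.23e-07). Its fold in shielded mice was the highest among the 33 tested members, and every LPS library was above every library without LPS.

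Aen, a p53-induced nuclease of apoptosis, had 27.0, 31.3 and 25.2 CPM in unshielded LPS mice, against 10.7, 11.6 and 11.3 CPM without LPS (1.32 ± 0.14, adjusted p = 1.4e-05). In shielded mice it had 70.4, 56.9 and 45.8 CPM with LPS, against 13.3, 12.1 and 11.3 CPM without (2.24 ± 0.14, adjusted p = 9.39e-08). Both pairs were well separated, and every shielded LPS value exceeded every unshielded one.

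Trp53inp1, a p53-induced nuclear protein of apoptosis and autophagy, had 101, 124 and 98.3 CPM in unshielded LPS mice, against 20.6, 20.8 and 24.7 CPM without LPS (4.90-fold, 95% interval 3.39 to 7.09, adjusted p = 2.28e-05). Shielded mice had 18.5, 39.7 and 38.9 CPM with LPS, against 21.9, 23.6 and 19.0 CPM without (0.59 ± 0.24, adjusted p = 0.0436). The 3 unshielded LPS libraries stood above all others, and shielded LPS library 1 lay below every library without LPS. The shielded call did not survive a block for the replicate number (0.56, adjusted p = 0.0947), a term that also brought in Mdm4 (0.31, adjusted p = 0.0229) and Pmaip1 (0.41, adjusted p = 0.0252) for shielded mice.

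Bax had 74.4, 82.7 and 68.1 CPM in unshielded LPS mice (0.43 ± 0.10, adjusted p = 0.00413) and 127, 110.0 and 98.8 CPM in shielded LPS mice (0.89 ± 0.10, adjusted p = 8.17e-06). All LPS values were above all those without LPS. Bbc3 had 14.2, 22.2 and 17.8 CPM in unshielded LPS mice and 27.0, 22.8 and 18.1 CPM in shielded LPS mice, and overlapped the values without LPS in both (-0.12 ± 0.16 and -0.23 ± 0.16). Phlda3 had 3.12, 1.29 and 2.03 CPM in unshielded LPS mice and 2.20, 1.66 and 2.27 CPM in shielded LPS mice, with changes of -0.69 ± 0.32 (adjusted p = 0.1) and -0.61 ± 0.33 (adjusted p = 0.115). Pmaip1, which encodes the BH3-only protein Noxa, changed by 0.53 ± 0.22 and 0.37 ± 0.22 and Tnfrsf10b by 0.55 ± 0.30 and -0.02 ± 0.31 in unshielded and shielded mice, and neither passed. Zmat3, which encodes an RNA-binding protein induced by p53, passed in shielded mice (0.55 ± 0.15, adjusted p = 0.00663), with 0.10 ± 0.15 in unshielded mice. Eda2r stayed at 12, 5 and 12 counts in unshielded LPS libraries and 4, 4 and 4 counts in shielded LPS libraries.

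The sestrins moved in opposite directions. Sesn2, the stress-induced member, had 31.5, 38.1 and 29.9 CPM in unshielded LPS mice, against 13.7, 12.8 and 13.8 CPM without LPS (1.30 ± 0.16, adjusted p = 4.21e-05). In shielded mice it had 66.7, 69.5 and 42.8 CPM with LPS, against 15, 14.9 and 16.9 CPM without (1.94 ± 0.16, adjusted p = 7.16e-07). Sesn1 had 121, 122 and 119 CPM in unshielded LPS mice and fell by 0.68 on the log2 scale (SE 0.12, adjusted p = 0.000601), and it had 50.9, 70.5 and 71.0 CPM in shielded LPS mice, where it fell by 0.94 (SE 0.12, adjusted p = 2.43e-05). No LPS value of Sesn1 reached the lowest value of its pair without LPS.

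Among repair genes, Ddb2, which senses ultraviolet lesions for nucleotide excision repair, had 5.60, 5.01 and 5.71 CPM in unshielded LPS mice, against 8.89, 8.14 and 8.10 CPM without LPS (-0.62 ± 0.13, adjusted p = 0.00197). Shielded mice had 3.20, 3.44 and 3.65 CPM with LPS, against 8.36, 7.43 and 8.60 CPM without (-1.25 ± 0.13, adjusted p = 5.41e-06). It was lower with LPS in every library. Its partner in damage recognition, Xpc, changed by 0.01 ± 0.10 in unshielded mice and 0.32 ± 0.10 in shielded mice (adjusted p = 0.0103). Ercc5 changed by -0.00 ± 0.08 in unshielded mice and fell in shielded mice (-0.31 ± 0.08, adjusted p = 0.0035). Polk, a polymerase that copies past lesions, fell in unshielded mice (-0.51 ± 0.12, adjusted p = 0.00358), against -0.13 ± 0.12 in shielded mice. Rrm2b, a ribonucleotide reductase subunit induced by p53, passed in neither (-0.22 ± 0.10 and -0.16 ± 0.10).

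The damage kinases also divided. Atm, the kinase of double-strand breaks, had 19.0, 22.7 and 15.6 CPM in unshielded LPS mice, against 20.4, 21.0 and 23.1 CPM without LPS, and these overlapped (-0.17 ± 0.13, adjusted p = 0.307). In shielded mice it had 31.7, 26.9 and 28.3 CPM with LPS, against 20.8, 20.2 and 16.6 CPM without (0.59 ± 0.13, adjusted p = 0.00205). Atr, the kinase of stalled replication, is given in full after its values were seen: it had 24.6, 30.2 and 25.6 CPM in unshielded LPS mice, against 24.2, 26.5 and 24.2 CPM without LPS (0.10 ± 0.11, adjusted p = 0.437). In shielded mice Atr had 49.3, 43.7 and 39.0 CPM with LPS, against 24.1, 22.5 and 20.9 CPM without (0.97 ± 0.11, adjusted p = 6.35e-06). In shielded mice all 3 LPS libraries of both kinases were above the others. The Atm call was lost without the 2 libraries of conflicting label (0.48, adjusted p = 0.0678) and when counts were scaled by library totals (0.25, adjusted p = 0.0814).

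Chek2, which Atm activates, had 4.33, 3.26 and 3.0 CPM in unshielded LPS mice, against 9.26, 7.22 and 8.36 CPM without LPS (-1.23 ± 0.19, adjusted p = 0.000242). Shielded mice had 3.38, 2.61 and 3.39 CPM with LPS, against 7.18, 8.34 and 6.05 CPM without (-1.19 ± 0.20, adjusted p = 0.000188). It fell in both, with no overlap. Chek1, which Atr activates, was at 0.512 to 1.32 CPM in all libraries and fell in shielded mice (-1.0 ± 0.26, adjusted p = 0.0054), with -0.29 ± 0.24 in unshielded mice. Brca1, of recombination repair, passed in neither (-0.07 ± 0.24 and -0.38 ± 0.25).

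Scaling bears on the split of directions. When counts were scaled by library totals, the median change of all genes was -0.36 in unshielded and -0.49 in shielded mice, and the members called were 8 higher and 12 lower in unshielded mice and 11 higher and 11 lower in shielded mice, beside 2656 higher and 6520 lower of all genes in unshielded mice (4585 and 3543 with TMM) and 4042 and 9131 in shielded mice (6119 and 6619 with TMM). Under TMM, 12 of the 13 unshielded calls and 13 of the 23 shielded calls held in all 15 alternatives that follow the titles. Bax in unshielded mice was lost with library totals (0.13, adjusted p = 0.112). In shielded mice a covariate for neuron and oligodendrocyte markers left 14 calls and ended those of Trp53 (0.30, adjusted p = 0.0639), Mdm2 (0.14, adjusted p = 0.351), Atm (0.30, adjusted p = 0.209), Zmat3, Plk3, Xpc, Ercc5, Chek1, Ppm1d and Trp53inp1. The covariate, a mean log2 CPM, was 2.90 to 5.01 in shielded LPS libraries and 5.34 to 6.23 in shielded libraries without LPS. These ranges did not overlap, so the fit cannot fully tell the covariate from LPS there. Without the 2 libraries of conflicting label, the shielded calls of Trp53inp1 (0.56, adjusted p = 0.226), Plk3 (0.47, 0.191), Ercc5 (-0.28, 0.068), Xpc (0.29, 0.117) and Ppm1d (0.26, 0.224) were lost beside that of Atm. Leaving out 1 library ended the call of Trp53inp1 (any but shielded LPS library 1, adjusted p 0.0544 to 0.165), Ppm1d (any but shielded LPS library 3, 0.0756 to 0.134), Plk3 (shielded LPS library 1, 0.0808, or shielded library 3 without LPS, 0.0732) and Xpc (shielded library 3 without LPS, 0.051).

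**Figure D3:**
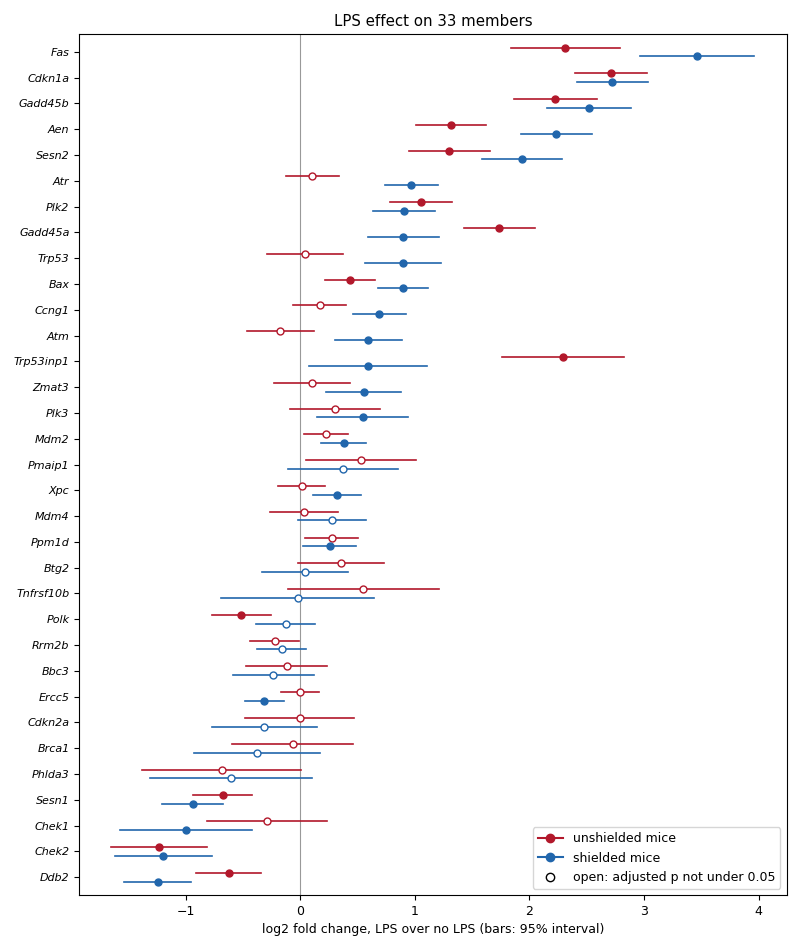
Log2 change with LPS for the 33 tested members, in unshielded and in shielded mice, with 95% intervals; filled points passed the adjusted threshold. Cdkn1a lies at 2.71 and 2.72 in the groups, Fas at 2.31 and 3.46, and Trp53inp1 at 2.29 and 0.59.

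After LPS, unshielded and shielded mice differed in 18 of 33 members, 6 higher and 12 lower in unshielded mice, beside 44.6% of all genes (19.1% higher and 25.6% lower). At least 2-fold calls numbered 4 of 33 members, beside 15.5% of all genes. The median was -0.08 over members and 0.07 over all genes. Both shield comparisons draw on separate libraries, and Sesn1 (higher) and Cdkn2a (lower) were the only members called in both. Of all 18875 genes, 583 were higher and 976 lower in both. The members higher in unshielded mice were Trp53inp1 (3.33-fold, 95% interval 2.32 to 4.79, adjusted p = 0.000156), Sesn1 (1.88-fold, adjusted p = 7.85e-05), Ddb2 (0.67 ± 0.13 log2, adjusted p = 0.00156), Gadd45a (0.54 ± 0.14, adjusted p = 0.00732), Plk2 (0.39 ± 0.12, adjusted p = 0.0223) and Chek1 (0.76 ± 0.26, adjusted p = 0.0323). For each of the 6, every unshielded library was above every shielded one. In this comparison the groups did not overlap for 18 of 33 members, beside 49.5% of all genes.

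On the lower side, Trp53 itself stood at 0.475-fold (-1.07 ± 0.15, adjusted p = 0.000143), with all unshielded LPS values (52.5 to 68.2 CPM) below all shielded ones (96.4 to 157 CPM). Aen was at 0.483-fold (adjusted p = 7.38e-05), Ccng1 at 0.544-fold (adjusted p = 4.6e-05) and Sesn2 at 0.556-fold (adjusted p = 0.000893), each without overlap. The kinases Atr (0.609-fold, adjusted p = 0.000171) and Atm (0.658-fold, adjusted p = 0.00303) and the effector Bax (0.671-fold, adjusted p = 0.00058) were lower as well. Gadd45b, Fas, Zmat3 and Xpc had smaller differences of -0.55 to -0.31 (adjusted p 0.0182 to 0.0417). Cdkn1a was not among them, with -0.07 ± 0.13 and an interval of -0.36 to 0.22 (adjusted p = 0.687), nor was Mdm2 (-0.18 ± 0.09, adjusted p = 0.12).

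Of the 18 calls, 11 held in all 15 alternatives that follow the titles, namely Trp53, Ccng1, Aen, Bax, Sesn1, Sesn2, Trp53inp1, Gadd45a, Atm, Atr and Cdkn2a. Among these alternatives Ddb2 lost its call only with a block for the replicate number (adjusted p = 0.0534). Fas, Zmat3, Gadd45b, Xpc, Plk2 and Chek1 each lost the call without at least 1 library, among them shielded LPS library 1 for all but Plk2 (adjusted p 0.0532 to 0.161), shielded LPS library 2 for Zmat3, Fas, Plk2 and Chek1 (0.0526 to 0.0991), shielded LPS library 3 for Chek1 (0.0614), unshielded LPS library 1 for Zmat3, Fas, Gadd45b and Chek1 (0.0615 to 0.146), unshielded LPS library 2 for Fas (0.089) and Plk2 (0.0606), and unshielded LPS library 3 for Zmat3, Plk2, Xpc and Chek1 (0.0515 to 0.1). Without the 2 libraries of conflicting label Fas was lost (-0.55, adjusted p = 0.0629). The covariate for neuron and oligodendrocyte markers left 14 members called. It ended the calls of Zmat3 (-0.18, adjusted p = 0.341), Fas (-0.27, 0.396), Gadd45b (-0.29, 0.197), Xpc (-0.18, 0.209) and Chek1 (0.53, 0.244), and Plk3 passed with it (0.69, 0.00284). The marrow macrophage and microglia markers given above also moved with this comparison. Of 9 astrocyte genes, 5 were higher and 1 lower in unshielded mice, beside 19.1% and 25.6% of all genes. Of 9 endothelial genes, 4 were higher and 0 lower. The part of these cells in the comparison was not tested.

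The difference between the LPS effects of unshielded and shielded mice, which uses all 4 groups, passed for 10 of 33 members beside 13.3% of all genes (4.06% higher and 9.25% lower), with 2 members at 2-fold or more beside 3.36% of all genes. The LPS change was more positive in unshielded mice for Trp53inp1 (difference 1.70 ± 0.33, adjusted p = 0.00837), Gadd45a (0.84 ± 0.20, adjusted p = 0.0168) and Ddb2 (0.62 ± 0.19, adjusted p = 0.0444). It was lower in unshielded mice for Fas (-1.15 ± 0.30, adjusted p = 0.0269), Aen (-0.92 ± 0.20, adjusted p = 0.0107), Atr (-0.86 ± 0.15, adjusted p = 0.0038), Trp53 (-0.85 ± 0.22, adjusted p = 0.0225), Atm (-0.77 ± 0.19, adjusted p = 0.0202), Ccng1 (-0.52 ± 0.15, adjusted p = 0.0388) and Bax (-0.46 ± 0.14, adjusted p = 0.0496). Without the 2 libraries of conflicting label none of the 10 passed under edgeR (10 of 33 members had an unadjusted p under 0.05), with differences of 1.73 for Trp53inp1 (adjusted p = 0.0753), -0.77 for Atr (adjusted p = 0.0806) and 1.0 for Gadd45a (adjusted p = 0.0591), and that fit also called 164 genes in all in place of 2512. The count ran from 4 to 13 as single libraries were left out, being 4 without shielded library 3 without LPS, 5 without shielded library 1 or unshielded library 1 or 3 without LPS, and 6 without shielded LPS library 1 or 2 or unshielded library 2 without LPS. Trp53inp1, Aen and Atr passed in every one of these fits. Among the libraries without LPS, leaving out shielded library 1 ended the call of Gadd45a (adjusted p = 0.0531), and leaving out unshielded or shielded library 3 ended that of Atm (0.0537 and 0.0535). Trp53 lost it in 5 fits (0.0504 to 0.0602), Fas in 6 (0.0541 to 0.0719), Ccng1 in 7 (0.0557 to 0.0965), Bax in 9 (0.0757 to 0.119) and Ddb2 in 10 (0.0541 to 0.114).

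Lists of related genes give the surroundings of these members. Of 58 other p53 targets, 19 rose and 12 fell with LPS in unshielded mice (median 0.08), beside 24.3% and 18.8% of all genes, and 24 rose and 22 fell in shielded mice (median 0.13), beside 32.4% and 35.1%. Ddit4, a stress-induced inhibitor of mTORC1, averaged 323 CPM in unshielded LPS mice and 21.2 CPM without LPS (3.93 ± 0.20), and 434 and 25.6 CPM in shielded mice (4.08 ± 0.20). Sod2, the mitochondrial superoxide dismutase, averaged 361 and 36.4 CPM in unshielded mice and 400.4 and 32.5 CPM in shielded mice. Ccng2, a cyclin of arrested cells, fell in both (-1.32 ± 0.12 and -1.80 ± 0.12).

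Without LPS, 2 of these 58 were higher and 10 lower in unshielded mice (median -0.03), beside 3.98% and 6.85% of all genes. Dram1, a lysosomal protein of p53-linked autophagy, averaged 16.4 CPM in unshielded and 3.68 CPM in shielded mice (2.14 ± 0.28, adjusted p = 0.000617). Ak1, an adenylate kinase, averaged 30.1 CPM in unshielded and 100.3 CPM in shielded mice (-1.75 ± 0.25, adjusted p = 0.0011), and Tlr3, a receptor for double-stranded RNA, 31.7 and 70.7 CPM (-1.16 ± 0.13, adjusted p = 0.000244). Both directions therefore occur among the calls.

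Of 25 tested regulators of p53, 11 rose and 5 fell with LPS in unshielded mice and 14 rose and 3 fell in shielded mice, beside 43.1% and 67.5% of all genes called in either direction. Daxx, a chaperone that binds Mdm2, rose in both (1.43 ± 0.12 and 1.36 ± 0.12), and Trim24, a ubiquitin ligase of p53, fell in both (-0.59 ± 0.10 and -0.90 ± 0.10). Without LPS 1 differed by shield, the methyltransferase gene Smyd2, with 10.6 CPM in unshielded and 5.66 CPM in shielded mice (0.90 ± 0.16, adjusted p = 0.0025). After LPS 4 were higher and 7 lower in unshielded mice, beside 19.1% and 25.6% of all genes, Npm1, a nucleolar partner of Arf, averaging 249.5 CPM in unshielded and 507 CPM in shielded mice.

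Of 35 genes of double-strand break signalling and repair, 3 were higher and 1 lower in unshielded mice without LPS, beside 3.98% and 6.85% of all genes. After LPS 5 were higher and 17 lower, beside 19.1% and 25.6% of all genes (median -0.24, against 0.07 over all genes). Those of end joining included Xrcc6, at 20.3 CPM in unshielded and 36.8 CPM in shielded LPS mice (-0.86 ± 0.10, adjusted p = 2.54e-05), and Xrcc5, at 8.19 and 15.7 CPM (-0.94 ± 0.13, adjusted p = 9.8e-05), both subunits of the Ku complex. Palb2, a partner of Brca2, was higher in unshielded mice without LPS (0.64 ± 0.15, adjusted p = 0.0147) and after it (0.91 ± 0.15, adjusted p = 0.000461). Of 31 genes of excision and mismatch repair, 1 was higher and 1 lower without LPS, and 4 were higher and 13 lower after LPS (median -0.23), beside the same shares of all genes. There the ligase Lig1 averaged 14.2 CPM in unshielded and 6.40 CPM in shielded mice (1.14 ± 0.12), and the endonuclease Apex1 13.5 and 26.2 CPM (-0.96 ± 0.12). With LPS the break repair genes showed 7 higher and 8 lower in unshielded mice and 15 higher and 6 lower in shielded mice, beside the shares of all genes given for LPS above.

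**Figure D4:**
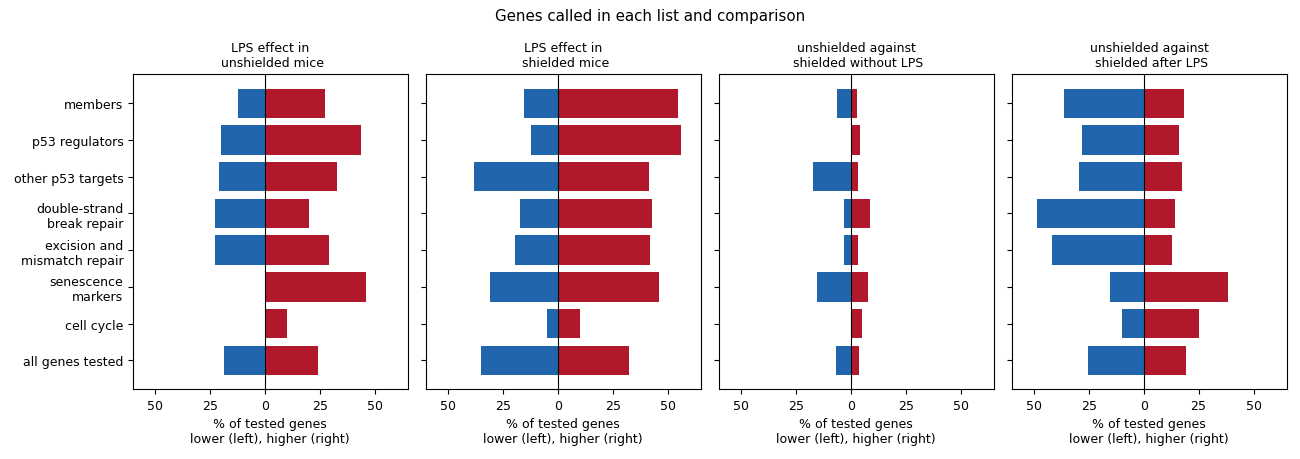
Share of tested genes called higher (right) and lower (left) in the members, related gene lists and all genes, for each comparison. Without LPS the shield comparison calls 3 of 33 members against 10.8% of all genes, and after LPS 17 of 35 break repair genes are lower in unshielded mice, against 25.6% of all genes.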

How the data were processed

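RNA was linearly amplified before library preparation, per the labels' protocols, and the part of amplification in the spread between libraries was not tested. The deposited table holds raw read counts per gene for 12 libraries. FastQC, STAR and HTSeq with build mm9 are named in the submitters' processing notes, and the sources used here give no versions, annotation or strand setting. Of 36491 identifiers, 254 had no symbol. Libraries were grouped by title.

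After TMM scaling, 1 edgeR 4.0.16 model (R 4.3.3; robust quasi-likelihood, two-sided) of 4 group means was fitted to the 18875 genes that filterByExpr left (minimum count 10, minimum total 15). Benjamini-Hochberg adjustment ran over all genes with a threshold of 0.05. Adjusted p-values come from this test, except those given for an alternative, which come from that alternative's own fit. The SE was taken as the size of the log2 change over the root of its F statistic. CPM values are TMM-scaled, and log2 CPM levels used a prior count of 2. The procedure was tested on simulated data. Libraries of a group differed by more than sampling noise (chi-square of at least 11.6 per degree of freedom).

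Members and gene lists were chosen with earlier results of these data known. Values in every library were given for members passing with a change of at least 2-fold in any comparison and for Trp53, Cdkn1a, Mdm2, Cdkn2a, Ccng1, Phlda3, Eda2r, Bax, Bbc3 and Atm. Of the other lists, the 3 genes with the smallest p per direction could be named.

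Replicate numbers come from the titles. Deviations of same-numbered libraries from their group means correlated at 0.112, 0.194 and 0.547 across genes between shielded mice with and without LPS, so the replicate block is given beside that comparison. There shielded LPS library 1 and shielded library 2 without LPS, of unlike number, correlated at 0.399. The values therefore do not settle whether the numbers pair the samples. In the other comparisons at least 1 pair was under 0.1. Alternatives changed the scaling, the filter, the samples fitted, covariates and the tool (DESeq2 1.42.0).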

Additional observations from a re-analysis of the deposited data

Results flagged for a closer look

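For 10 members the LPS effect differed between unshielded and shielded mice by the test of that difference (edgeR, adjusted over all genes). The difference, unshielded minus shielded on the log2 scale, was 1.70 for Trp53inp1, 0.84 for Gadd45a and 0.62 for Ddb2, which LPS moved further up, or less far down, in unshielded mice. It was -1.15 for Fas, -0.92 for Aen, -0.86 for Atr, -0.85 for Trp53, -0.77 for Atm, -0.52 for Ccng1 and -0.46 for Bax. LPS raised all of these in shielded mice, but in unshielded mice only Fas, Aen and Bax were called higher. None of the 10 passed without the 2 shielded libraries of conflicting label, where 10 of 33 members had an unadjusted p under 0.05 and all 10 differences kept their sign.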

How the results depend on the processing

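The LPS calls of Cdkn1a, Gadd45a, Gadd45b, Plk2, Fas, Aen, Sesn2, Sesn1, Ddb2 and Chek2 in both shield groups, and the Cdkn2a difference by shield, held under the 15 alternatives that follow the titles. Regrouping 2 shielded libraries by their treatment field left 2 members called for LPS in unshielded mice (139 of all genes), 0 in shielded mice (0 members with an unadjusted p under 0.05 in edgeR, 0 genes in all), 0 by shield without LPS (1 unadjusted, 0 genes), 2 by shield after LPS (1456 genes) and 0 for the difference of LPS effects (2 unadjusted, 0 genes). It also turned Fas to 0.0980 and Gadd45b to 0.0729 by shield after LPS. Leaving those libraries out gave 1 member by shield without LPS (310 genes) and 0 for the difference (10 unadjusted, 164 genes), and 8450 genes for LPS in shielded mice.

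The covariate for neuron and oligodendrocyte markers gave 14 members for LPS in shielded mice (6705 genes), 6 by shield without LPS (3474 genes) and 6 for the difference, and turned Plk3 to -0.0374 for LPS in shielded mice. Library totals gave 20 members for LPS in unshielded mice and 5 by shield without LPS. They turned the LPS change of Mdm4 to -0.28, Xpc to -0.28 and Atr to -0.20 in unshielded mice, and of Xpc to -0.0295 and Ppm1d to -0.0931 in shielded mice. By shield without LPS, a filter of 1 CPM gave 5 members and fitting only the compared groups gave 6. The cause of these shifts was not tested.

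The replicate block gave 10 members (3689 genes) by shield without LPS, 13 after LPS, 14 and 24 for LPS in unshielded and shielded mice, and 8 for the difference. The labels do not say whether the numbers pair the samples. For LPS in shielded mice the block changed no call beside Trp53inp1, Mdm4 and Pmaip1. Leaving out 1 library gave 4 to 13 members and 1589 to 6171 genes for the difference, with 13 members and 6171 genes without shielded LPS library 3. By shield without LPS it gave 1156 to 1781 genes, with 1156 without shielded library 2, 1341 without unshielded library 1 and 1164 without unshielded library 3. Without a filter the difference gave 1571 genes. Members near 1 CPM, such as Chek1, Brca1 and Tnfrsf10b, and Eda2r below it, carry wide intervals, so small changes of theirs were not detectable at this depth.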

Other observations

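Among 13 tested genes used as senescence markers, 6 rose and 0 fell with LPS in unshielded mice and 6 rose and 4 fell in shielded mice, beside 43.1% and 67.5% of all genes called. Lmnb1, which encodes lamin B1 and is known to fall in senescent cells, averaged 94.6 CPM in unshielded LPS mice and 22.2 CPM without LPS (2.09 ± 0.16, adjusted p = 1.17e-06), and 106 and 19.2 CPM in shielded mice (2.46 ± 0.16, adjusted p = 1.24e-07). Il6, a cytokine secreted by senescent and by activated cells, averaged 12.4 and 1.92 CPM in unshielded mice and 34.1 and 5.85 CPM in shielded mice with and without LPS, so it was lower in unshielded mice both without LPS (-1.67 ± 0.29, adjusted p = 0.00292) and after it (-1.46 ± 0.25, adjusted p = 0.000695). Mmp12, a macrophage elastase, was higher in unshielded mice without LPS, at 7.32 against 2.73 CPM (1.43 ± 0.20, adjusted p = 0.000636), and after LPS, at 6.33 against 2.87 CPM (1.14 ± 0.20, adjusted p = 0.00058).

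Cell cycle genes had few calls. Of 20, 2 rose and 0 fell with LPS in unshielded mice, and 2 rose and 1 fell in shielded mice, beside 43.1% and 67.5% of all genes called. Their mean log2 CPM was 1.88 to 2.36 in unshielded LPS libraries and 1.67 to 1.84 in shielded LPS libraries. Without LPS it was 1.78 to 1.88 in unshielded and 1.70 to 1.88 in shielded libraries. After LPS 5 were higher and 2 lower in unshielded mice than in shielded mice, beside 44.6% of all genes called. Mki67, the proliferation marker, averaged 17.9 CPM in unshielded and 5.84 CPM in shielded LPS mice (1.61 ± 0.21, adjusted p = 7.43e-05), whereas Pcna, the replication clamp and a p53 target, averaged 78.2 and 137 CPM (-0.80 ± 0.09, adjusted p = 2.78e-05).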
